A study of Mus musculus with 18 samples.

Results

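The 35 genes described here encode the machinery of the unfolded protein response and of the ATF4 stress program in mouse macrophages. They were chosen by name: 36 of the 56748 rows of the deposited count table carried 1 of the 35 gene names, and the extra row, a second entry for Ddit3, held 0 reads in every library and was set aside. All 35 passed the filter on low counts, which kept 15450 genes. By role they fall into 14 chaperones and folding factors of the endoplasmic reticulum, 4 genes of the degradation of misfolded proteins, 4 sensors and their transcription factors, 8 regulators of the ATF4 arm, and 5 ATF4-driven enzymes of amino acid and one-carbon metabolism.

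Proteins bound for secretion or for the cell surface fold in the endoplasmic reticulum. When unfolded chains gather there, the sensors IRE1 alpha (encoded by Ern1), ATF6 and PERK (encoded by Eif2ak3) switch on the unfolded protein response. IRE1 alpha splices the mRNA of the transcription factor XBP1, ATF6 is cut to free a transcription factor, and both raise chaperones and degradation factors. PERK phosphorylates the translation factor eIF2 alpha, and other kinases that sense amino acid shortage, viral RNA or haem shortage meet at the same step, after which ATF4 is translated and raises genes for amino acid supply, redox balance and, through CHOP (encoded by Ddit3), cell death. The pathway can therefore be engaged in its chaperone arm, in its ATF4 arm or in both. In macrophages TLR4 signalling is known to engage IRE1 alpha and XBP1.

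The macrophages were grown from the bone marrow of C57BL/6J mice, either TLR4 knockout or wildtype, with L929 supernatant in the medium, which supplies the growth factor M-CSF. On day 7 all groups were moved to serum-free IMDM and received GM, MDP or water for 24 h. GM is the disaccharide GlcNAc-MurNAc of bacterial peptidoglycan, and MDP is spelled MurNAc-D-Ala-L-Gln in the labels, which is not the spelling of the NOD2 ligand muramyl dipeptide (MurNAc-L-Ala-D-isoGln). Each molecule carries MurNAc, which bears GlcNAc in GM and a short peptide in MDP. Doses, the age and sex of the mice, the exact knockout allele and whether the 3 libraries of a group came from separate animals are not stated. The spread behind each p-value is that between these libraries, and it may be technical. The 6 groups were knockout GM, knockout MDP, knockout water, wild-type GM, wild-type MDP and wild-type water, with 3 libraries each.

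The 18 libraries held 15532973 to 21128507 counted reads. Tlr4 lay at 36.5 to 52.9 CPM (counts scaled to a common library size) in the 9 knockout libraries and at 117 to 230 CPM in the 9 wild-type libraries, so transcript of the targeted gene remained in the libraries labelled knockout (knockout against wild type in water: log2 difference -1.82, SE 0.19, adjusted p = 0.0034). All 8 macrophage markers, Adgre1, Csf1r and Cd68 among them, were read in every group, with a summed level of 24474 to 32792 CPM, and the T cell, B cell and plasma cell markers summed to at most 6.56, 3.8 and 5.84 CPM in any library. Wild-type water replicate 3 stood apart from replicates 1 and 2 on the second principal component, at -43.5 against -5.54 and -5.81. The biological coefficient of variation, the spread between libraries beyond counting error, was 6.12% in knockout GM, 6.5% in knockout MDP, 5.71% in knockout water, 27.6% among wild-type GM libraries, 8.09% among wild-type MDP and 35.4% among wild-type water libraries. For this reason each comparison was tested with edgeR's quasi-likelihood test on its own libraries only. A gene was called at a Benjamini-Hochberg adjusted p below 0.05 over all 15450 genes. The counts of the 35 genes from a fit of all 18 libraries are given where they differ by over 1.5 times. Counts at an unadjusted p below 0.05 are given without the share of all genes at that cut-off. Such counts are therefore not read as results about these genes.

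The roles differ in the motifs of their promoters, which are shown because chaperones and ATF4 genes are compared below. The RefSeq promoter table (build GRCm38.p6, which is not the build of the counts) held windows from 250 bases before to 50 after the gene start for 32 of the 35 genes; Hyou1, Manf and Atf6 were not matched. Search was made for 3 motifs on both strands. The endoplasmic reticulum stress element, CCAAT then 9 free bases then CCACG, is the site through which ATF6 and the factor NF-Y act. Element II, ATTGG then 1 free base then CCACG, is bound by ATF6 and XBP1, and the C/EBP-ATF response element, TGATGNAA, is bound by ATF4 with C/EBP factors. The stress element occurred in 7 of 12 matched chaperones (Hspa5, Hsp90b1, Calr, Canx, Pdia6, Dnajc3 and Creld2) and in the degradation gene Syvn1, but in none of the matched sensors, regulators or enzymes, against 37 of all 27025 promoters (0.137%). Element II occurred in Dnajb11 and Herpud1, against 12 of all promoters (0.0444%). The ATF4 element occurred in Atf3, Chac1, Trib3, Asns and Herpud1, against 1219 of all promoters (4.51%). No match of a motif overlapped a match of another in these genes. A match of letters is not evidence of binding in these cells. The genes were chosen by name as known members of these pathways, so the shares describe the windows and are no test of the roles. The windows below are given 5′ to 3′ in the direction of the gene, with motif matches in capitals, and their GRCm38.p6 positions are chr2:34771990-34772089 on the plus strand for Hspa5, chr10:86705525-86705674 on the minus strand for Hsp90b1, chr8:84847012-84847111 on the minus strand for Calr, chr8:94386299-94386398 on the plus strand for Herpud1, chr6:7693210-7693309 on the minus strand for Asns and chr1:191183364-191183463 on the minus strand for Atf3. The windows of Hspa5, Hsp90b1 and Calr carry the stress element, that of Herpud1 carries element II and the ATF4 element, and those of Asns and Atf3 carry the ATF4 element.
Hspa5: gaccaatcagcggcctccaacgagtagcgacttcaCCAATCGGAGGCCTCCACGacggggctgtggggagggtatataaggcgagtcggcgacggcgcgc
Hsp90b1: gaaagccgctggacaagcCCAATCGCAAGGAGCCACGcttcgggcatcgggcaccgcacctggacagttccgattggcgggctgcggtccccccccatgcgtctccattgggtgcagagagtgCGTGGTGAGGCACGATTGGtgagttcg
Calr: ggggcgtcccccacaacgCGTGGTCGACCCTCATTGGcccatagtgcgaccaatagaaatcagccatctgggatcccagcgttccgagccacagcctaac
Herpud1: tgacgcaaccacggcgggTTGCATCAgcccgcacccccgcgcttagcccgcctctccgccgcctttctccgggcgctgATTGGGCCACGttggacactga
Asns: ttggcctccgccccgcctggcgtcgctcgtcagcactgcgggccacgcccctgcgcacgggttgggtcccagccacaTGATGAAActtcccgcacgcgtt
Atf3: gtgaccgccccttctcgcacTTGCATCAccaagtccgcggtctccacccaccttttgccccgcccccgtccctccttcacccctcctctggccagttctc
Pdia4 (chr6:47813513-47813612 on the minus strand) and Mthfd2 (chr6:83317605-83317704 on the minus strand), the genes called for MDP in wild type below, had no match of the 3 motifs in the window, and the 100 bases before their start are shown for comparison.
Pdia4: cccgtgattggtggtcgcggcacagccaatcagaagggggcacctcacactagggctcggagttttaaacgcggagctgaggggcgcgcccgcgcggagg
Mthfd2: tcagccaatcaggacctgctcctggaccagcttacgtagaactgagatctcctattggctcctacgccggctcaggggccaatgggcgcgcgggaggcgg

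Chaperone transcripts dominated the group. On the authors' FPKM scale, which allows for gene length, the chaperones Calr, Hspa5, Pdia3 and Hsp90b1 averaged 378 ± 3.12, 257 ± 8.53, 231 ± 4.95 and 212 ± 1.7 FPKM in knockout water, and 519 ± 46.5, 261 ± 95.8, 262 ± 50.3 and 261 ± 59 FPKM in wild-type water (SD, n = 3 each). In wild-type water the SDs of Hspa5, Pdia3 and Hsp90b1 exceeded the gaps between their means, so their order there is not resolved. Among the regulators Atf3, a transcription factor of the stress response, was the most abundant, at 127 ± 3.98 FPKM in knockout water and 226 ± 45.8 FPKM in wild-type water. The sensor genes Atf6, Eif2ak3 and Ern1 were expressed far below the chaperones named above. In knockout water they averaged 9.51, 6.83 and 5.26 FPKM, and in wild-type water 8.95, 6.22 and 8.03 FPKM. Xbp1, counted with the sensors by role, averaged 52.3 FPKM in knockout water and 61.4 FPKM in wild-type water. That was above less abundant chaperones such as Dnajb9, at 18.2 and 21.1 FPKM. The 5 enzymes lay between 2.86 FPKM (Psat1) and 13.6 FPKM (Mthfd2) in knockout water and between 2.01 FPKM (Phgdh) and 9.47 FPKM (Mthfd2) in wild-type water. Chac1, a glutathione-degrading enzyme induced by ATF4, was the least abundant, at 0.565 ± 0.0314 FPKM in knockout water and 0.229 ± 0.188 FPKM in wild-type water, and rests on 204 reads over all 18 libraries.

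**Figure D1:**
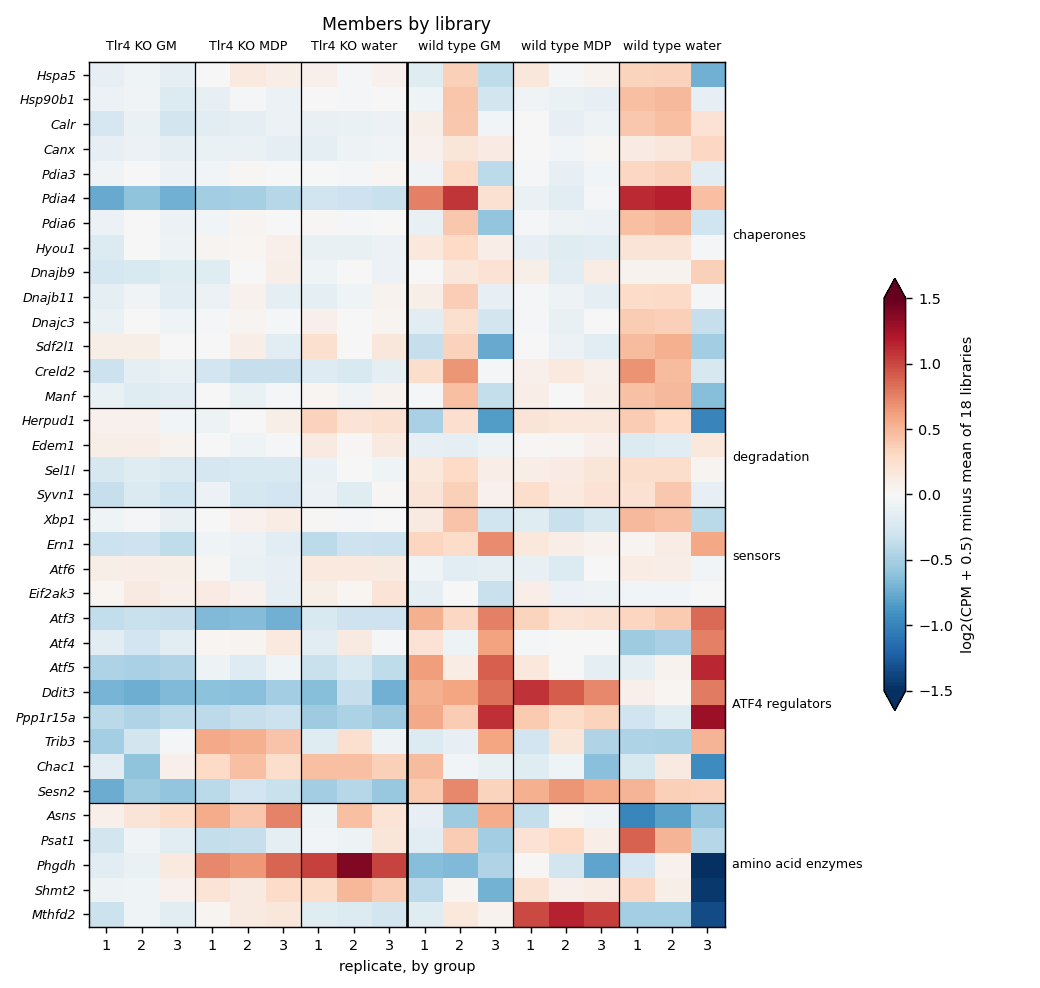
Level of the 35 genes in each of the 18 libraries, as log2(CPM + 0.5) minus the mean of the gene over the 18 libraries, with genes in rows by role and libraries in columns by group. Knockout libraries look alike within a group, whereas wild-type water replicate 3 is low for Hspa5, Phgdh and Shmt2 and high for Atf4, Atf5 and Ppp1r15a against replicates 1 and 2.

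The arms differed between libraries of the same wild-type group, which bears on every comparison that uses them. Hspa5, which encodes BiP, the main chaperone and the brake on all 3 sensors (ENSMUSG00000026864, GRCm39 chr2:34661982-34667559), lay at 1333, 1347 and 645 CPM in wild-type water. Atf4, the transcription factor itself (ENSMUSG00000042406, chr15:80139385-80141742), lay at 109, 113 and 267 CPM in the same libraries, and Ppp1r15a, which encodes the eIF2 alpha phosphatase subunit GADD34, at 42.3, 45.8 and 128 CPM. Replicate 3 was thus low for the chaperone and high for the ATF4 regulators. Against both other libraries it was at least 1.5-fold lower for 7 of 14 chaperones (21.9% of all genes tested), at least 1.5-fold higher for 5 of 8 regulators (14.3% of all genes), and at least 1.5-fold lower for 4 of 5 enzymes. The enzymes did not follow the regulators: Phgdh lay at 6.26, 7.92 and 0.83 CPM and Shmt2 at 21.1, 18 and 5.87 CPM. The wild-type GM libraries spread along the same genes, with Hspa5 at 935, 1363 and 813 CPM, Atf4 at 183, 149 and 241 CPM and Ppp1r15a at 77.7, 68.1 and 112 CPM. There replicate 2 had the chaperone level of water replicates 1 and 2, and replicates 1 and 3 lay lower.

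**Figure D2:**
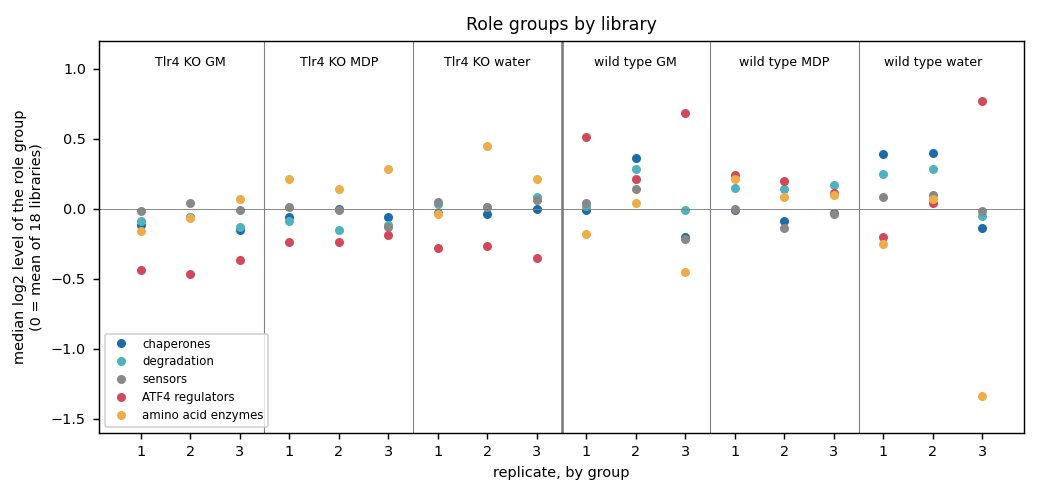
Median over the genes of a role of log2(CPM + 0.5) minus the gene's mean over the 18 libraries, by library and group. In knockout water the ATF4 regulators are at -0.28, -0.27 and -0.35 and the enzymes at -0.04, 0.45 and 0.21, whereas the wild-type water values are -0.2, 0.04 and 0.77 for the regulators and -0.25, 0.07 and -1.34 for the enzymes.

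Markers of other cells and of division also differed between these libraries. The summed level of the 10 stromal markers, all of them read, was 58.9, 106 and 65.2 CPM in wild-type GM replicates 1 to 3, and 276, 248 and 60.5 CPM in wild-type water. That of 10 cell cycle genes was 147, 274 and 107 CPM in wild-type GM and 335, 289 and 97 CPM in wild-type water. Among 8 neutrophil markers, of which Ly6g was at 0 in wild-type water, the sums were 38.8, 13.4 and 16.7 CPM in wild-type GM, where Elane was at 0, and 7.06, 8.1 and 50.4 CPM in wild-type water. Water replicate 3 was low in the stromal and cell cycle sums and high in the neutrophil sum, and among the GM libraries the neutrophil sum was highest in replicate 1. Of the stromal markers Pdgfra went the other way, at 7.82, 8.59 and 9.79 CPM in wild-type water. Across the other groups the stromal sum was 8.78 to 13.2 CPM in knockout GM, 10.2 to 14.4 CPM in knockout MDP, 17.6 to 22.3 CPM in knockout water and 17.3 to 24.7 CPM in wild-type MDP, where Lum was at 0. Thy1 alone lay at 11.3, 9.65 and 10.9 CPM in knockout water, against 2.08, 1.56 and 2.33 CPM in wild-type MDP. Like sums in these groups thus hold different markers. The cell cycle sum was 586 to 618 CPM in knockout GM, 461 to 496 CPM in knockout MDP, 730 to 792 CPM in knockout water and 370 to 438 CPM in wild-type MDP. The part of these genes in the differences that follow was not tested, and in such bulk RNA a change in the number of cells of a type and a change in RNA per cell cannot be told apart.

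The first comparison asks how the TLR4 knockout differs before any ligand. In water the knockout macrophages had less of the disulphide isomerase Pdia4, of the lectin chaperone Calr, of the sensor gene Ern1 and of the stress regulators Atf3, Ddit3 and Sesn2, and more of the asparagine synthetase gene Asns. In all 1 of the 35 genes was higher and 6 were lower, where 6.32% of all genes were higher and 8.3% lower (14.6% in either direction). The chaperones leaned lower (median log2 difference -0.23, against -0.03 over all genes) with 2 of 14 called, and the enzymes leaned higher (median 0.57) with 1 of 5 called.

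Pdia4 (ENSMUSG00000025823, GRCm39 chr6:47773075-47790364) lay at 180, 178 and 175 CPM in knockout water, against 480, 496 and 302 CPM in wild-type water. The groups did not overlap, and the fitted level was 2.39-fold lower (log2 difference -1.26, SE 0.19, adjusted p = 0.011). Calr, which with calnexin holds glycoproteins during folding (ENSMUSG00000003814, chr8:85568479-85573563), lay at 1088, 1093 and 1102 CPM in knockout water and at 1550, 1600 and 1362 CPM in wild-type water, again without overlap (log2 -0.46, SE 0.1, adjusted p = 0.027). Hspa5, at 1117, 1051 and 1112 CPM in knockout water, lay inside the wild-type range of 645 to 1347 CPM (log2 -0.02, SE 0.27). The 12 uncalled chaperones had log2 differences of -0.54 to -0.02.

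Among the sensors Ern1 lay at 41.6, 44.2 and 43.8 CPM in knockout water, against 56.7, 59.2 and 82.4 CPM in wild-type water (log2 -0.62, SE 0.16, adjusted p = 0.047). Its partner Xbp1 lay at 173, 169 and 170 CPM in knockout water and at 240, 232 and 129 CPM in wild-type water, with overlap. Atf6 was at 88.4, 88.6 and 87.6 CPM in knockout water against 86.5, 85.2 and 77.7 CPM in wild-type water, and Eif2ak3 at 40.7, 39.1 and 44.2 CPM against 37.3, 37.4 and 38.3 CPM, neither called. Counts per gene do not separate spliced from unspliced Xbp1, so the activity of IRE1 alpha is not measured here. Of the 4 degradation genes none was called by edgeR, with 1 lower at an unadjusted p below 0.05 (Sel1l, which holds the degradation complex together, at log2 -0.25).

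The ATF4 regulators divided. Sesn2, a sestrin that restrains mTORC1 when leucine is short (ENSMUSG00000028893, chr4:132219343-132237812), lay at 36.5, 39 and 35.3 CPM in knockout water, against 75, 67.4 and 66.8 CPM in wild-type water, a 1.89-fold lower level (log2 -0.92, SE 0.09, adjusted p = 0.0033). Ddit3, which encodes CHOP (ENSMUSG00000025408, chr10:127126643-127132157), was at 18.1, 22.3 and 17.1 CPM in knockout water and 30.1, 29.1 and 49.5 CPM in wild-type water (log2 -0.92, SE 0.24, adjusted p = 0.048). Atf3 (ENSMUSG00000026628, chr1:190902493-190950236) was at 287, 270 and 271 CPM in knockout water and 419, 441 and 608 CPM in wild-type water (log2 -0.83, SE 0.16, adjusted p = 0.02). Atf4 itself lay at 140, 174 and 156 CPM in knockout water, inside the wild-type spread of 109 to 267 CPM. Of the other 4 regulators Ppp1r15a had a log2 difference of -0.99, Atf5 of -0.78, Trib3 of 0.07 and Chac1 of 1.31, none called.

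Among the enzymes 1 of 5 was called, and it was higher. Asns (ENSMUSG00000029752, chr6:7675169-7693254) lay at 10.9, 16.1 and 13.5 CPM in knockout water, against 5.65, 6.45 and 7.69 CPM in wild-type water (2.05-fold, log2 1.03, SE 0.2, adjusted p = 0.022). Phgdh, which commits glycolytic carbon to serine synthesis (ENSMUSG00000053398, chr3:98220486-98247306), was at 15.9, 20.5 and 15.7 CPM in knockout water, against 6.26, 7.92 and 0.83 CPM in wild-type water. The groups did not overlap, but the spread in wild type left it uncalled (log2 1.8, SE 0.66, 95% interval 0.21 to 3.39, adjusted p = 0.12). Psat1, the next enzyme of that route, ran the other way from Phgdh, at 11.6, 11.4 and 13.7 CPM in knockout water and 22.7, 17.3 and 8.8 CPM in wild-type water, and was not called (log2 -0.41). Shmt2, which moves a carbon from serine to folate in mitochondria, was at 20.5, 24.1 and 22.1 CPM against 21.1, 18 and 5.87 CPM, and Mthfd2, the next mitochondrial folate enzyme, at 48.9, 48.2 and 46 CPM against 39, 38.9 and 21.6 CPM, both uncalled.

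These counts rest on single libraries. Without wild-type water replicate 3, 6 genes were higher and 23 lower (22.1% and 24.7% of all genes), 13 of 14 chaperones were called lower and Atf4 was 0.5 higher on the log2 scale (adjusted p = 2.3e-05). Without wild-type water replicate 1 or 2 the number called was 3, and without any knockout water library it was 1, Sesn2 being called in every case. The fit of all 18 libraries called 15 of the 35 (33.1% of all genes), Phgdh among them (adjusted p = 0.0069). Beside these values, the 6 dendritic cell markers summed to 706 to 732 CPM in knockout water and 1225 to 1589 CPM in wild-type water, and the neutrophil and cell cycle sums were higher in knockout water; their part was not tested.

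The next comparisons ask what each ligand did in wild-type cells. MDP raised the folate enzyme gene Mthfd2 and lowered Pdia4, and no other of the 35 genes was called, so that 1 was higher and 1 lower where 4.61% of all genes were higher and 3.72% lower (8.34% in either direction). Mthfd2 (ENSMUSG00000005667, chr6:83282673-83302890) lay at 111, 125 and 115 CPM in wild-type MDP, against 39, 38.9 and 21.6 CPM in wild-type water, a 3.52-fold higher level (log2 1.82, SE 0.23, adjusted p = 0.0079). Every MDP library lay above every water library. Pdia4 lay at 207, 196 and 217 CPM in wild-type MDP, against 480, 496 and 302 CPM in wild-type water, a 2.06-fold lower level (log2 -1.04, SE 0.2, adjusted p = 0.026).

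Mthfd2 stood alone among the enzymes. Asns was at 8.98, 11.8 and 11.2 CPM in wild-type MDP and 5.65, 6.45 and 7.69 CPM in wild-type water, without overlap but uncalled (log2 0.69, SE 0.19, adjusted p = 0.079). Psat1 was at 14, 14.8 and 12.9 CPM with MDP, Phgdh at 7.66, 6.15 and 4.14 CPM and Shmt2 at 19.9, 17.9 and 18.3 CPM, all inside the range of their water libraries. With all libraries of both groups the called difference was thus in the folate step of Mthfd2 alone, and differences in the serine route were not shown. Without wild-type water replicate 3 edgeR also called Psat1 lower (log2 -0.52, adjusted p = 0.0038) and Asns higher (log2 0.82, adjusted p = 0.0011). Phgdh and Shmt2 stayed uncalled there. The edgeR fit of all 18 libraries called Asns higher too (adjusted p = 0.042).

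None of the 14 chaperones had a positive fitted difference with MDP (median log2 -0.26, against -0.04 over all genes), yet only Pdia4 was called. Hspa5 lay at 1187, 1041 and 1095 CPM in wild-type MDP, inside the water range of 645 to 1347 CPM. The 4 sensors and 4 degradation genes had no call by edgeR, none of them even at an unadjusted p below 0.05: Xbp1 lay at 151, 135 and 144 CPM with MDP against 240, 232 and 129 CPM in water, Ern1 at 61.2, 58.8 and 57 CPM, Atf6 at 74, 69.1 and 79.2 CPM and Eif2ak3 at 41.3, 36.2 and 36.5 CPM. Of the 8 regulators none was called and 1, Ddit3, was higher at an unadjusted p below 0.05. It lay at 61.2, 54.2 and 47.3 CPM in wild-type MDP, against 30.1, 29.1 and 49.5 CPM in wild-type water (log2 0.58, SE 0.23, adjusted p = 0.17). Atf4 lay at 154, 157 and 158 CPM with MDP, between the water libraries at 109 and 113 CPM and the water library at 267 CPM.

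Against water replicates 1 and 2 alone 6 genes were called higher and 16 lower. Of all genes 17.2% were then higher and 18.2% lower, so the share called higher was near that of all genes. All chaperones but Dnajb9 were then called lower (13 of 14), among them Hspa5 (log2 -0.27, adjusted p = 0.0013) and Hsp90b1 (log2 -0.56, adjusted p = 1.2e-07), and so was Xbp1 (log2 -0.72). Ddit3 (log2 0.87), Ppp1r15a (0.58), Atf4 (0.5), Asns (0.82), Mthfd2 (1.58) and Edem1, a lectin of the degradation route (0.22), were called higher. Without wild-type MDP replicate 2 or 3 edgeR called 0 of the 35 genes (Mthfd2 at an adjusted p of 0.058 and 0.053), and without water replicate 1 or 2 or MDP replicate 1 Mthfd2 alone was called. DESeq2 called 2 higher and 2 lower. The fit of all 18 libraries called 7 of the 35 (24.7% of all genes). The neutrophil sum was 57 to 79.4 CPM in wild-type MDP and 7.06 to 50.4 CPM in wild-type water. The stromal sum was 276 and 248 CPM in water replicates 1 and 2 and 17.3 to 24.7 CPM in wild-type MDP. The part of these markers was not tested.

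**Figure D3:**
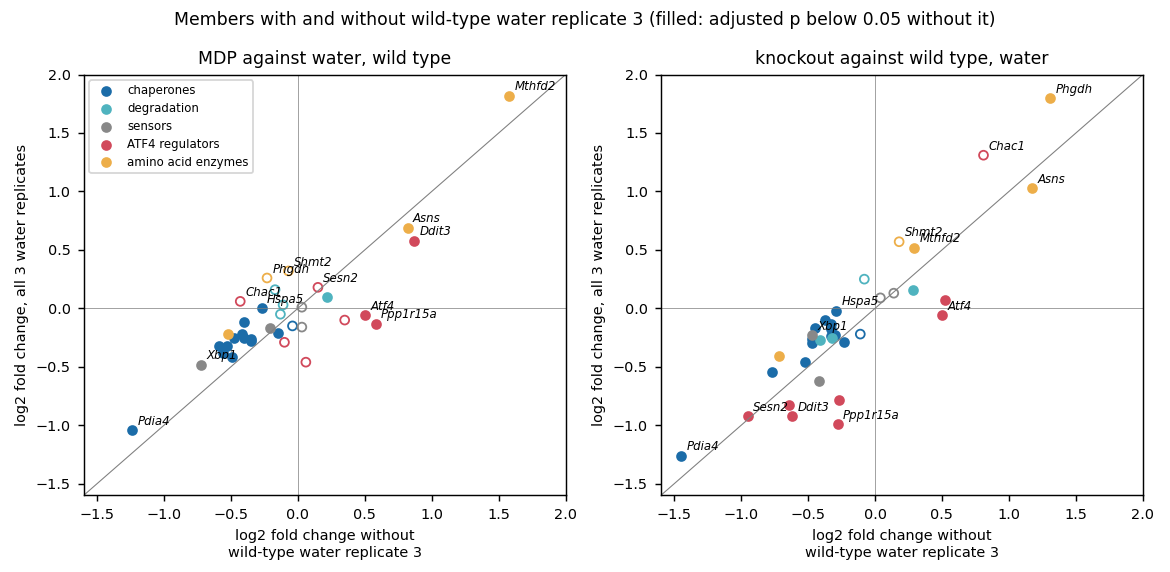
Fitted log2 differences of the 35 genes from all libraries (vertical) against those without wild-type water replicate 3 (horizontal), for MDP against water in wild type (left) and knockout against wild type in water (right), with the line of equality. Filled points were called without that library (22 of 35 on the left and 29 of 35 on the right); Mthfd2 and Pdia4 lie near the line, and Atf4 moves to 0.5 on the horizontal axis in both panels.

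GM against water in wild type gave 0 called genes among the 35 (0.608% of all genes were called, all higher). At an unadjusted p below 0.05 edgeR had 2, Asns and Mthfd2, and both were called by the fit of all 18 libraries (4.72% of all genes), whereas DESeq2 called 0. Asns lay at 10.6, 7.89 and 17.3 CPM in wild-type GM, against 5.65, 6.45 and 7.69 CPM in wild-type water (log2 0.85, SE 0.32, adjusted p = 0.69), and Mthfd2 at 49, 62.2 and 57.8 CPM against 39, 38.9 and 21.6 CPM (log2 0.76, SE 0.25, adjusted p = 0.53). Neither pair of groups overlapped. The chaperones had a median log2 difference of -0.16, with 1 of 14 positive, against -0.03 over all genes. The regulators had one of 0.22, with 8 of 8 positive in sign, from 0.0 at Atf3 to 0.84 at Chac1. The medians were -0.36 and 0.62 without wild-type water replicate 3, with 4 regulators higher at an unadjusted p below 0.05 and Chac1 at 0.33. Without wild-type GM replicate 2 they were -0.35 and 0.34, with 7 of 8 regulators positive. In both runs edgeR called 0 of these genes. Hspa5 (935, 1363 and 813 CPM with GM), Atf4 (183, 149 and 241 CPM) and Ddit3 (41.6, 43.2 and 51.1 CPM) overlapped with water. So did Xbp1 at 188, 229 and 139 CPM, Ern1 at 68.7, 66.5 and 90.1 CPM and Eif2ak3 at 34.6, 38.6 and 30.3 CPM, while Atf6, at 76.3, 71.1 and 72.4 CPM, lay below all 3 water libraries without being called (log2 -0.18). The intervals were wide: for Hspa5 the 95% interval ran from -0.9 to 0.71 and for Atf4 from -0.7 to 1.16, so changes of these sizes were not excluded.

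Between the ligands in wild type, GM libraries had more Pdia4 and Hyou1 and less Mthfd2 than MDP libraries, 2 higher and 1 lower of 35 where 5.59% of all genes were higher and 4.41% lower (9.99% in either direction). The doses of the molecules are not stated, so this sets the treatments side by side as given. Mthfd2 lay at 49, 62.2 and 57.8 CPM in wild-type GM, against 111, 125 and 115 CPM in wild-type MDP (2.07-fold lower, log2 -1.05, SE 0.11, adjusted p = 0.0029), a difference called in every alternative run. Pdia4 lay at 375, 466 and 259 CPM in wild-type GM and 207, 196 and 217 CPM in wild-type MDP (log2 0.83, SE 0.2, adjusted p = 0.042). Hyou1, a large chaperone that works with BiP (ENSMUSG00000032115, chr9:44290787-44303666), was at 234, 257 and 225 CPM in wild-type GM and 192, 185 and 188 CPM in wild-type MDP (log2 0.34, SE 0.09, adjusted p = 0.049). For the other genes a difference was not shown, and its interval still holds sizeable values, such as -0.54 to 0.35 for Hspa5 and -0.09 to 0.67 for Atf4. Without wild-type GM replicate 2, 7 genes were higher and 6 lower (15.2% and 13.8% of all genes), without GM replicate 3 the count was 3 and 1, and without GM replicate 1 or any MDP library only Mthfd2 was called.

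**Figure D4:**
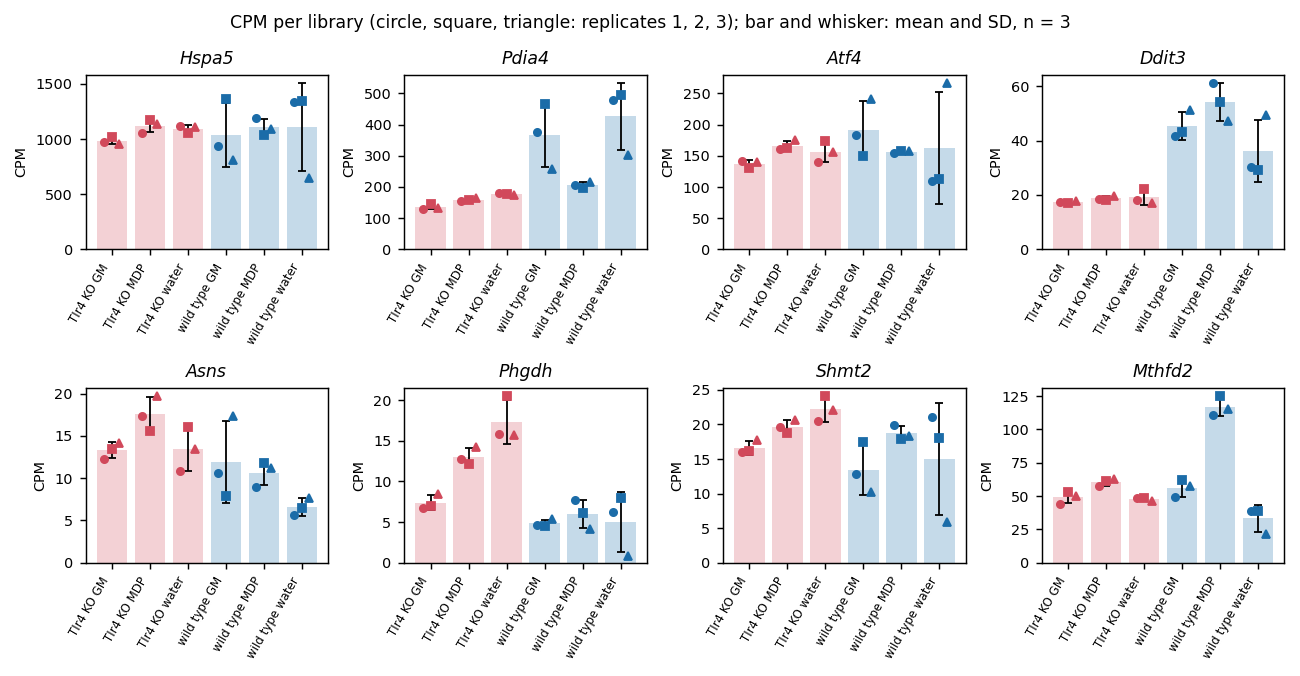
CPM of 8 genes in each library (symbols for replicates 1 to 3) with the group mean as a bar and the SD as a whisker (n = 3), knockout in red and wild type in blue, each bar axis from 0. Mthfd2 stands at 111 to 125 CPM in wild-type MDP and at 62.7 CPM or less in every other library, and Phgdh in knockout cells is lowest with GM (6.7 to 8.42 CPM) and highest with water (15.7 to 20.5 CPM).

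In knockout cells the libraries were tight, and small differences were called. With GM 0 of the 35 genes were higher and 8 lower, where 3.61% of all genes were higher and 4.23% lower (7.84% in either direction). Phgdh fell most. It lay at 6.7, 7.03 and 8.42 CPM in knockout GM, against 15.9, 20.5 and 15.7 CPM in knockout water, a 2.36-fold lower level (log2 -1.24, SE 0.13, adjusted p = 5.4e-09). Shmt2, which uses serine, lay at 16, 16.1 and 17.8 CPM in knockout GM, against 20.5, 24.1 and 22.1 CPM in knockout water (log2 -0.42, SE 0.09, adjusted p = 0.0026). The other enzymes were not called: Psat1 lay at 9.81, 11.6 and 10.7 CPM with GM against 11.6, 11.4 and 13.7 CPM in water, Asns at 12.3, 13.4 and 14.2 CPM against 10.9, 16.1 and 13.5 CPM, and Mthfd2 at 44.3, 53.1 and 49.8 CPM against 48.9, 48.2 and 46 CPM.

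The chaperones called lower with GM in knockout were Pdia4, Manf and Hspa5. Pdia4 lay at 131, 146 and 134 CPM in knockout GM, against 180, 178 and 175 CPM in knockout water (1.3-fold lower, log2 -0.38, SE 0.04, adjusted p = 1.4e-07). Manf, a secreted protein of the endoplasmic reticulum that protects cells under stress, lay at 82.9, 78.5 and 79 CPM against 91.1, 86.3 and 92.5 CPM (log2 -0.17, SE 0.05). Hspa5 lay at 974, 1015 and 959 CPM in knockout GM and 1117, 1051 and 1112 CPM in knockout water (log2 -0.15, SE 0.04, adjusted p = 0.011). The other 11 chaperones had log2 differences of -0.18 to 0.01. Of the 4 degradation genes, 3 were lower: Herpud1, which recruits the degradation machinery, at 52.8, 53.1 and 49 CPM with GM against 64.2, 58.3 and 59.4 CPM in water (log2 -0.23), Syvn1, the ubiquitin ligase HRD1, at 44.2, 48.2 and 45.4 CPM against 52.8, 49.3 and 57 CPM (log2 -0.21), and Sel1l at 187, 195 and 190 CPM against 205, 220 and 210 CPM (log2 -0.15). None of these groups overlapped.

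The sensors gave 0 calls in that comparison, also at an unadjusted p below 0.05: Xbp1 lay at 163, 168 and 159 CPM with GM, Ern1 at 43.8, 44.3 and 42.2 CPM, Atf6 at 84.9, 85.6 and 84.7 CPM and Eif2ak3 at 39, 42.2 and 40.5 CPM. The regulators gave 0 calls and 3 lower at an unadjusted p below 0.05. Atf4 lay at 142, 130 and 140 CPM in knockout GM against 140, 174 and 156 CPM in knockout water (log2 -0.19), and Ddit3 at 17.3, 16.9 and 17.8 CPM against 18.1, 22.3 and 17.1 CPM. The number called was 3 without knockout GM replicate 3, 4 without knockout water replicate 3 and 5 without knockout water replicate 1, and 0 in the fit of all 18 libraries (0.0194% of all genes), where 2 were lower at an unadjusted p below 0.05. Phgdh, Shmt2 and Pdia4 were called without each single library in turn. Beside these values, the 8 neutrophil markers summed to 221 to 284 CPM in knockout GM and 77.3 to 145 CPM in knockout water, and the stromal and cell cycle sums were lower in knockout GM, as given above; their part was not tested.

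MDP in knockout cells split the ATF4 arm. Of the 35 genes 6 were higher and 6 lower, where 9.16% of all genes were higher and 10% lower (19.2% in either direction). Mthfd2, Asns, Trib3 and Atf5 were higher, Atf3 and Phgdh were lower, and the degradation genes Herpud1 and Sel1l were lower. Mthfd2 lay at 57.3, 61.1 and 62.7 CPM in knockout MDP, against 48.9, 48.2 and 46 CPM in knockout water (1.26-fold higher, log2 0.34, SE 0.06, adjusted p = 6e-05). Asns lay at 17.4, 15.6 and 19.7 CPM against 10.9, 16.1 and 13.5 CPM, with overlap (log2 0.37, SE 0.12, adjusted p = 0.03). Phgdh lay at 12.8, 12.1 and 14.2 CPM in knockout MDP, below its 3 water libraries (log2 -0.42, SE 0.11, adjusted p = 0.0057). Psat1 (9.25, 9.32 and 10.9 CPM with MDP) and Shmt2 (19.6, 18.7 and 20.6 CPM) were not called, at log2 -0.31 and -0.18.

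Among the regulators Trib3, a pseudokinase that dampens ATF4 and CHOP (ENSMUSG00000032715, chr2:152179342-152185952), lay at 12.9, 12.6 and 11.6 CPM in knockout MDP, against 7.44, 10.1 and 8.01 CPM in knockout water (1.44-fold higher, log2 0.53, SE 0.13, adjusted p = 0.0026). Atf5, a transcription factor of the same family as ATF4, lay at 60, 55.5 and 60.4 CPM against 50.2, 54.1 and 48.5 CPM (log2 0.2). Atf3 lay at 212, 214 and 203 CPM in knockout MDP, against 287, 270 and 271 CPM in knockout water (1.32-fold lower, log2 -0.4, SE 0.05, adjusted p = 1.2e-08). Atf4 (161, 162 and 175 CPM with MDP) and Ddit3 (18.5, 18.3 and 19.7 CPM) overlapped with water and were not called.

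In the chaperone arm Pdia4 was lower, at 154, 157 and 165 CPM in knockout MDP against 180, 178 and 175 CPM in knockout water (log2 -0.17, SE 0.05), and Hyou1 was higher, at 216, 214 and 220 CPM against 193, 194 and 197 CPM (log2 0.15, SE 0.05). Hspa5 was not called, at 1055, 1172 and 1136 CPM with MDP (log2 0.04). Herpud1 (47.8, 50.8 and 53.9 CPM with MDP, log2 -0.26) and Sel1l (185, 187 and 188 CPM, log2 -0.18) lay below all 3 water libraries. The sensors split, with Ern1 higher at 52.5, 51.7 and 48.6 CPM in knockout MDP against 41.6, 44.2 and 43.8 CPM in knockout water (log2 0.24, adjusted p = 0.0065), and Atf6 lower at 80.8, 74.5 and 73.2 CPM against 88.4, 88.6 and 87.6 CPM (log2 -0.21, adjusted p = 0.0039). Xbp1 (171, 178 and 184 CPM) and Eif2ak3 (41.9, 40.3 and 35 CPM) were not called. Leaving out single libraries left 9 to 13 calls, and the fit of all 18 libraries called 0 of the 35 (2.76% of all genes), with 3 lower at an unadjusted p below 0.05. The neutrophil sum was 162 to 252 CPM in knockout MDP and 77.3 to 145 CPM in knockout water, and its part was not tested.

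GM against MDP in knockout gave the most calls of the 9 comparisons in the 35 genes, 2 higher and 12 lower, where 8.08% of all genes were higher and 8.31% lower (16.4% in either direction). The ATF4 arm made up 8 of the 14. Phgdh lay at 6.7, 7.03 and 8.42 CPM in knockout GM, against 12.8, 12.1 and 14.2 CPM in knockout MDP (1.76-fold lower, log2 -0.81, SE 0.13, adjusted p = 5.7e-06). Trib3 lay at 5.83, 6.92 and 8.29 CPM against 12.9, 12.6 and 11.6 CPM (1.76-fold lower, log2 -0.81, SE 0.14, adjusted p = 1.2e-05). Asns (log2 -0.4), Atf5 (-0.36), Mthfd2 (-0.3), Atf4 (-0.28, SE 0.05, adjusted p = 3.5e-05) and Sesn2 (-0.28) were also lower with GM, and Atf3 was higher, at 260, 267 and 265 CPM in knockout GM against 212, 214 and 203 CPM in knockout MDP (log2 0.33, SE 0.05). Among the enzymes 3 of 5 were called, all lower.

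The chaperones were closer between the ligands. Of 14, 4 were called, all lower with GM, by at most 0.21 on the log2 scale: Pdia4 (log2 -0.21), Hspa5 (-0.19), Dnajb9 (-0.19) and Hyou1 (-0.14). Dnajb9, a co-chaperone that restrains IRE1 alpha, lay at 40.4, 41 and 42.6 CPM in knockout GM and 42.5, 48 and 51.5 CPM in knockout MDP, with overlap. For the uncalled chaperones the 95% intervals bound any difference closely, for example -0.12 to 0.07 for Hsp90b1 and -0.09 to 0.09 for Canx. Ern1 was lower (log2 -0.23) and Atf6 higher (log2 0.16) with GM. The calls of Dnajb9 and Atf6 were each lost in 9 of 12 alternative runs and that of Hyou1 in 8, DESeq2 among them. Those of Pdia4 and Hspa5 were each lost in 1 and that of Ern1 in 2. The comparison shares its libraries with the 2 preceding ones, since GM and MDP were each set against the same water libraries. Leaving out single libraries left 10 to 14 calls, and the fit of all 18 libraries called 0 of the 35 (1.57% of all genes), with 2 higher and 2 lower at an unadjusted p below 0.05.

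**Figure D5:**
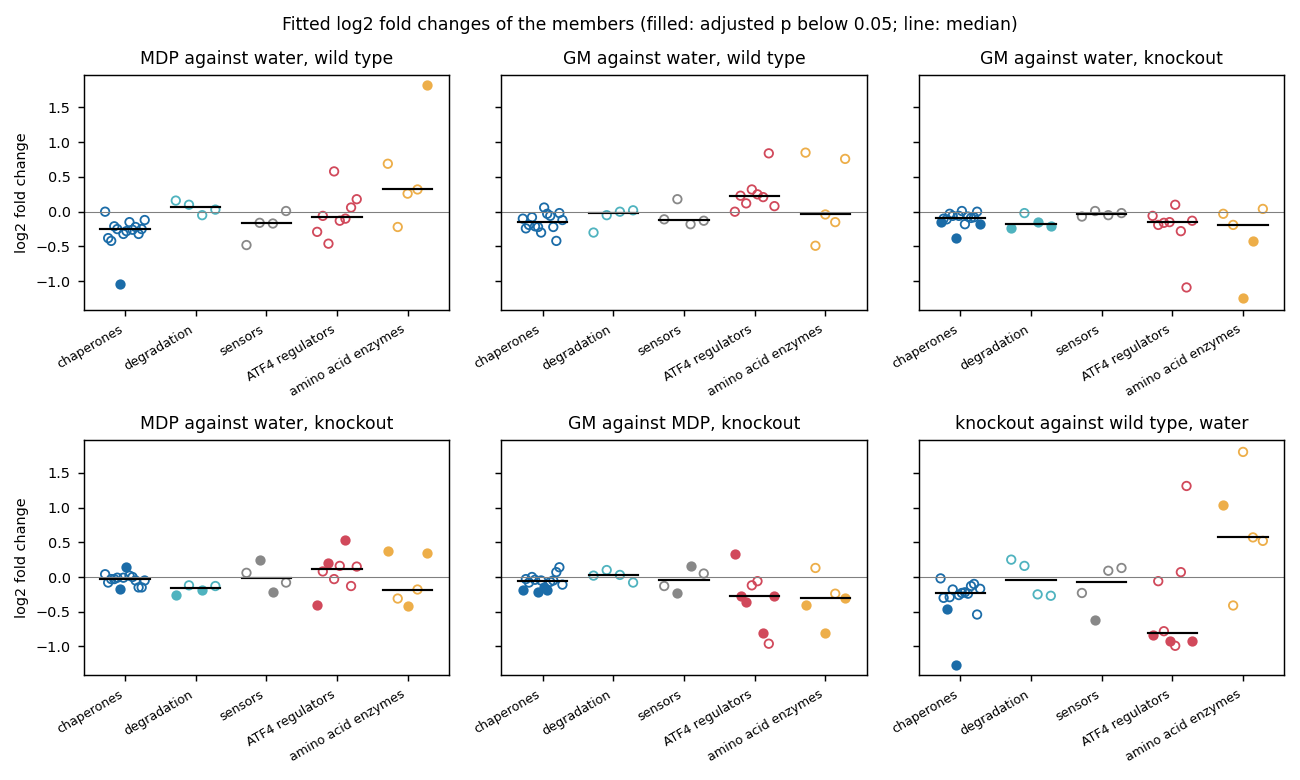
Fitted log2 differences of the 35 genes by role in 6 comparisons, 1 point per gene, filled where the adjusted p was below 0.05, with a line at the median of the role. Mthfd2 is the high filled point at 1.82 for MDP in wild type, Phgdh the low one at -1.24 for GM in knockout, and the chaperone medians lie between -0.26 and -0.03.

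Whether the ligands acted differently in the 2 genotypes was tested directly, as the response in knockout minus the response in wild type. For MDP 3 genes had a higher and 1 a lower difference, where 3.34% of all genes had a higher and 4.63% a lower one (7.97% in either direction). Mthfd2 responded less in knockout, with log2 changes of 0.34 in knockout and 1.82 in wild type (difference -1.48, SE 0.24, adjusted p = 0.0042), and this was called in every alternative run. Pdia4 fell less in knockout, with -0.17 in knockout and -1.04 in wild type (difference 0.87, SE 0.21, adjusted p = 0.025). Hyou1 (difference 0.43, SE 0.1, adjusted p = 0.022) and Calr (difference 0.39, SE 0.1, adjusted p = 0.04) also had higher differences. The wild-type water libraries enter these differences and also the genotype and MDP comparisons above, so the calls are not independent. For Pdia4 they lay at 480, 496 and 302 CPM. Its knockout water libraries (180, 178 and 175 CPM) already lay below wild-type MDP (207, 196 and 217 CPM). Without wild-type water replicate 3 the counts were 13 higher and 6 lower (12.1% and 14.1% of all genes), without water replicate 1 or 2 Calr was no longer called, and without any knockout library or wild-type MDP library at most 2 remained called. For GM 0 of the 35 genes were called (0.939% of all genes), with 2, Asns (-0.87) and Mthfd2 (-0.72), lower at an unadjusted p below 0.05 and 0 called by DESeq2 or by the fit of all 18 libraries (1.86% of all genes). Without wild-type water replicate 3 Atf4 (-0.98, adjusted p = 0.037) and Ddit3 (-0.76, adjusted p = 0.029) were called lower for GM, where 2.93% of all genes were.

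Of the 35 genes 14 (40%) were called in none of the 9 comparisons, as were 60.4% of all genes tested. Among them were 8 chaperones: Hsp90b1, Canx, Pdia3, Pdia6, Dnajb11, Dnajc3, Sdf2l1 and Creld2. Their fitted log2 differences spanned -0.54 (Creld2) to 0.34 (Sdf2l1) over all comparisons, and Hsp90b1, the HSP90 of the endoplasmic reticulum, ran between 715 and 1207 CPM over the 18 libraries. All 8 were called lower without wild-type water replicate 3 in knockout against wild-type water, at log2 -0.77 (Creld2) to -0.23 (Canx). In that fit 24.7% of all genes were called lower and 22.1% higher. The others were the lectin gene Edem1 at 350 to 450 CPM, Xbp1 at 129 to 240 CPM, Eif2ak3 at 30.3 to 44.2 CPM, Ppp1r15a at 35.7 to 128 CPM, Chac1 at 0.0553 to 0.988 CPM and Psat1 at 8.24 to 22.7 CPM.

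Set side by side, the chaperones and the ATF4 amino acid enzymes had these fitted log2 differences; the difference between the lists was not tested. In wild-type MDP the chaperone median was -0.26 and the enzyme median 0.32, with calls for Pdia4 alone and Mthfd2 alone. These medians were -0.41 and -0.07 without wild-type water replicate 3, so the sign of the enzyme median rests on that library, and 13 of 14 chaperones were then called lower and 2 enzymes higher and 1 lower. In knockout MDP the medians were -0.03 and -0.18, and in knockout GM -0.09 and -0.19, while in wild-type GM they were -0.16 and -0.04 (-0.36 and -0.54 without wild-type water replicate 3, -0.35 and 0.01 without wild-type GM replicate 2). For knockout against wild type in water they were -0.23 and 0.57 (-0.35 and 0.29 without wild-type water replicate 3). The enzymes spread more among themselves than the chaperones: in knockout GM they ran from -1.24 to 0.04 and the chaperones from -0.38 to 0.01, and in wild-type MDP the enzymes ran from -0.22 to 1.82 and the chaperones from -1.04 to 0.00. Most enzymes also had lower counts and larger standard errors. For GM in knockout the SE was 0.06 for Mthfd2 and 0.13 for Phgdh, against 0.04 for Hspa5 and 0.08 for Creld2. The part of this in the wider spread was not tested. Asns and Phgdh, both placed in the ATF4 group, were called in opposite directions for MDP against water in knockout (log2 0.37 and -0.42) and in the same direction for GM against MDP in knockout (-0.4 and -0.81). The higher Asns call in knockout MDP was lost in 6 of 12 alternatives, DESeq2 among them, and the lower Phgdh call in 2.

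Other genes of the pathway, from lists of 45 further endoplasmic reticulum genes (43 tested) and 45 further ATF4 genes (41 tested), gave the wider view. With MDP in wild type 0 further endoplasmic reticulum genes rose and 2 fell, Fkbp14 and Fkbp11, prolyl isomerases of the endoplasmic reticulum, at log2 -1.61 and -1.02, and 2 further ATF4 genes rose and 1 fell, where 4.61% of all genes were higher and 3.72% lower. Leaving out wild-type water replicate 3, 5 genes were higher and 13 lower in the endoplasmic reticulum list and 9 and 10 in the ATF4 list, against 17.2% and 18.2% of all genes. Wars, a tRNA synthetase, rose (log2 0.69, adjusted p = 0.0088) and Cebpb, a partner of ATF4, fell (log2 -1.42, adjusted p = 0.036). With MDP the fit of all 18 libraries called 2 endoplasmic reticulum genes higher and 5 lower and 4 ATF4 genes higher and 7 lower. Of all genes 24.7% were called by that fit in either direction. GM in wild type gave 0 calls by edgeR in both lists (0.608% of all genes), with 1 endoplasmic reticulum gene and 2 ATF4 genes higher at an unadjusted p below 0.05. The fit of all 18 libraries gave 1 call in each list (4.72% of all genes).

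With GM in knockout 3 further ATF4 genes rose and 3 fell, where 3.61% of all genes were higher and 4.23% lower. The fit of all 18 libraries called 0 genes in both lists (0.0194% of all genes), with 2 endoplasmic reticulum genes higher and 1 lower and 2 ATF4 genes lower at an unadjusted p below 0.05. Of the further endoplasmic reticulum genes 3 rose and 2 fell, with Vcp, the ATPase that pulls misfolded proteins out for degradation, and Gfpt1, the entry enzyme of hexosamine synthesis, each at log2 0.23 and the oxidase Ero1a, which makes disulphide bonds, at log2 -0.21. Slc7a11, the cystine importer, lay at 697, 784 and 764 CPM in knockout GM, against 462, 496 and 517 CPM in knockout water (log2 0.61, SE 0.05, adjusted p = 4.5e-11), and its partner chain Slc3a2 rose with it (log2 0.34). Slc38a2, a neutral amino acid importer, lay at 75.7, 77.3 and 81.9 CPM against 114, 118 and 119 CPM (log2 -0.58, SE 0.05, adjusted p = 3.2e-11). With MDP in knockout 9 further ATF4 genes rose and 2 fell, where 9.16% of all genes were higher and 10% lower. The fit of all 18 libraries called 1 of them higher and 0 lower, and 2.76% of all genes in either direction. Ddit4, a restraint on mTORC1, lay at 18.2, 23.6 and 19.7 CPM in knockout MDP, against 8.24, 7.44 and 7.82 CPM in knockout water (log2 1.39, SE 0.12, adjusted p = 4.5e-12), and Stc2, a secreted glycoprotein, was at 2.6, 3.24 and 2.03 CPM against 0.957, 0.965 and 0.994 CPM (log2 1.44). Of the further endoplasmic reticulum genes 7 rose and 4 fell there, with Ero1a at 215, 191 and 161 CPM against 131, 115 and 120 CPM (log2 0.63) and Wfs1, a membrane protein of the endoplasmic reticulum, at log2 -0.69, and the fit of all 18 libraries called 0 higher and 1 lower. In knockout against wild-type water 5 further endoplasmic reticulum genes were higher and 2 lower, Wfs1 (log2 -1.0) and Erlec1 (log2 0.89) moving most, where 6.32% of all genes were higher and 8.3% lower. In the same comparison 0 further ATF4 genes were called by edgeR, with 3 higher and 8 lower at an unadjusted p below 0.05 and, in the fit of all 18 libraries, 1 called higher and 7 lower. That fit called 11 higher and 7 lower in the endoplasmic reticulum list, and 33.1% of all genes in either direction. When wild-type water replicate 3 was left out, the counts were 15 higher and 8 lower for the endoplasmic reticulum list and 7 and 15 for the ATF4 list, against 22.1% and 24.7% of all genes.

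Between the ligands, wild-type GM libraries had 3 further endoplasmic reticulum genes higher and 0 lower than MDP libraries, Fkbp11 (log2 0.97), Ero1a (0.83) and Sec11c, a signal peptidase subunit (0.52), and 2 further ATF4 genes higher and 1 lower, where 5.59% of all genes were higher and 4.41% lower. Without wild-type GM replicate 2 the counts were 7 higher and 5 lower for the endoplasmic reticulum list and 12 and 4 for the ATF4 list (15.2% and 13.8% of all genes). The fit of all 18 libraries called 6 and 3, and 5 and 2. Its share of all genes is not given for this comparison, so these counts are not read as results about the lists. Of the ATF4 genes Slc6a9, a glycine transporter, lay at 11.7, 3.92 and 20 CPM in wild-type GM, against 0.876, 1.41 and 2.07 CPM in wild-type MDP (log2 3.04, SE 0.62, adjusted p = 0.029). Cebpb was higher (log2 1.57) and Got1, an aspartate aminotransferase, lower (log2 -0.44). In knockout 3 further endoplasmic reticulum genes were higher and 7 lower with GM than with MDP, and 2 further ATF4 genes were higher and 10 lower, where 8.08% of all genes were higher and 8.31% lower. The fit of all 18 libraries called 0 endoplasmic reticulum genes, with 2 higher and 4 lower at an unadjusted p below 0.05, and 2 ATF4 genes, all lower. Of all genes it called 1.57%. Ero1a lay at 111, 103 and 102 CPM in knockout GM, against 215, 191 and 161 CPM in knockout MDP (log2 -0.85, SE 0.11, adjusted p = 0.0031), below it in every library, whereas in wild type it lay above. Ddit4 (log2 -1.21), Stc2 (-1.67) and Slc1a4, a neutral amino acid transporter (-0.98), were lower with GM in knockout. For the MDP response in knockout minus wild type, 2 further endoplasmic reticulum genes had a higher and 0 a lower difference (Fkbp14 at 1.64 and Fkbp11 at 1.13), and 4 further ATF4 genes had a higher and 2 a lower one, led by Stc2 (2.93), Vldlr (2.02) and Cebpb (1.61), where 3.34% of all genes had a higher and 4.63% a lower one. With wild-type water replicate 3 left out the counts were 10 higher and 4 lower for the endoplasmic reticulum list and 13 and 5 for the ATF4 list (12.1% and 14.1% of all genes).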

How the data were processed

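Poly(A) RNA of bone marrow-derived macrophages was sequenced as directional libraries, 3 for each of 6 groups. The authors deposited raw read counts per gene, made with HISAT2 2.0.5 and featureCounts 1.5.0-p3 on GRCm39 per the submitters' processing notes. The deposited FPKM values equal the counts divided by gene length and by a library size of the authors' own, and were used only to compare levels between genes. Strand setting and annotation release are not given in the sources used here, so reads of overlapping genes cannot be assigned beyond the deposited counts.

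Genes were kept with edgeR 4.0.16's filterByExpr (count minimum 10) and scaled with TMM over all 18 libraries (factors 0.877 to 1.06). Each comparison was fitted with edgeR's robust quasi-likelihood test on the libraries it compares, and p-values were adjusted by Benjamini-Hochberg over all 15450 genes in R 4.3.3. The members, their roles, the further pathway lists and the marker lists were chosen with earlier results of these data known. Per-library values are given for Hspa5, the 4 sensors, Atf4, Ddit3, the 5 enzymes and, in each comparison and role, up to 3 called genes with the largest change; Manf, Herpud1, Syvn1, Sel1l, Hyou1 and Dnajb9 enter by that rule, and Ppp1r15a in wild-type groups was added after its values were seen. The alternatives were all 18 libraries in 1 fit, DESeq2 size factors, no filter (28395 genes), DESeq2 1.42.0, limma-voom 3.58.1 with 1 spread per group, the replicate number as a block, and leaving out each library. The fitting code was tested on simulated data.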

Additional observations from a re-analysis of the deposited data

Results flagged for a closer look

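The MDP response differed between knockout and wild type for 4 genes, by a test of the difference itself (edgeR's quasi-likelihood interaction term over the 12 libraries of the MDP and water groups, with Benjamini-Hochberg adjustment). Mthfd2 had a log2 difference of -1.48 (95% interval -2.01 to -0.94): it was 0.34 in knockout and 1.82 in wild type. Pdia4 had one of 0.87 (95% interval 0.42 to 1.33), from -0.17 in knockout and -1.04 in wild type. Hyou1 had one of 0.43 and Calr one of 0.39. The differences of Pdia4, Hyou1 and Calr depend on single libraries, as given above, and that of Mthfd2 was called in each alternative run.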

How the results depend on the processing

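Of 50 calls over the 9 comparisons, 3 held in every alternative run: Mthfd2 between GM and MDP in wild type, Sesn2 between knockout and wild type in water, and Mthfd2 in the MDP response difference. The fit of all 18 libraries, which lends the wide wild-type spread to the knockout groups, called 2 of the 35 genes for GM and 7 for MDP against water in wild type, 0 for GM against water, 0 for MDP against water and 0 for GM against MDP in knockout, and 15 for knockout against wild type in water. DESeq2 called 4 for MDP against water in wild type. No other size factor, filter or limma-voom setting moved a count by over 1.5 times.

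Leaving out 1 library at a time gave 0 calls for GM and 0 to 22 for MDP against water in wild type, 1 to 13 for GM against MDP in wild type, 3 to 8 for GM and 9 to 13 for MDP against water in knockout, and 10 to 14 for GM against MDP in knockout. It gave 1 to 29 for knockout against wild type in water, 0 to 2 for the difference in GM response and 1 to 19 for that in MDP response. The highest wild-type counts came from fits that also called many of all genes. Higher and lower shares were 22.1% and 24.7% for the 29, 17.2% and 18.2% for the 22, 12.1% and 14.1% for the 19, and 15.2% and 13.8% for GM against MDP in wild type. Shares for most other runs are not given, so these ranges are not read as results about these genes. Direction turned with a call only without wild-type water replicate 3. Over the libraries left out, Atf4 ran from -0.28 to 0.5 for MDP against water in wild type and from -0.28 to 0.5 for knockout against wild type in water, and Ppp1r15a from -0.4 to 0.58 for MDP in wild type. For the MDP response difference Atf4 ran from -0.41 to 0.37 and Ppp1r15a from -0.42 to 0.56. Without 1 library the wild-type fits rest on few samples. Some differences inside the intervals given above were then called by edgeR. For GM against MDP without wild-type GM replicate 2 these included Hspa5 (log2 -0.34, adjusted p = 0.027) and Atf4 (log2 0.44, adjusted p = 0.016).

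With the replicate number as a block, 1 gene was called for MDP against water and 1 for GM against MDP in wild type, 2 for knockout against wild type in water and 1 for the MDP response difference. Deviations of same-numbered libraries correlated at -0.185 to 0.484, with no comparison in which every pair exceeded 0.1. The highest values, 0.484 and 0.472, belonged to replicates 2 and 3 of wild-type GM and water, and replicate 1 gave -0.185. Whether same-numbered libraries share a batch or an animal is not stated and was not tested.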
